A study of Mus musculus with 10 samples.

Results

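The absorptive enterocyte gene group was read in RNA sequencing libraries of macrophages sorted from the mouse small intestine. It held 9 genes, Fabp1, Fabp2, Apoa1, Apoa4, Alpi, Sis, Vil1, Rbp2 and Anpep, taken by name from a table of 17279 genes, in which all 9 were present. Whole small intestines were peeled to the mucosal layer, and cells positive for a CX3CR1-GFP reporter were sorted from the lamina propria, the connective tissue beneath the gut epithelium. The genotype of every sample was labelled C57BL6/J, and age was not given in the sources used here. There were 5 libraries from sham-operated mice and 5 from mice with permanent middle cerebral artery occlusion (pMCAO), a model of ischaemic stroke without reperfusion, all collected 24 h after surgery. Both groups had therefore undergone surgery. The description of replicate 1 in each group named it as a pool, and the labels did not give the number of animals behind any library.

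Enterocytes are the absorptive cells of the intestinal epithelium, and the 9 genes cover the main steps of their work. Sucrase-isomaltase (Sis), aminopeptidase N (Anpep) and intestinal alkaline phosphatase (Alpi) act on the brush border at the luminal surface, and villin (Vil1) bundles the actin of its microvilli. Inside the cell Fabp1 and Fabp2 bind fatty acids and Rbp2 binds retinol, while the apolipoproteins Apoa1 and Apoa4 leave the cell on lipoprotein particles. These proteins are known mainly from intestine, liver and kidney, but Anpep, also called CD13, is a known surface protein of myeloid and dendritic cells. Whether the reads of the 9 genes came from enterocytes or their debris in the sorted fraction was not tested, and in bulk RNA fewer cells of a type and less RNA per cell cannot be told apart.

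The stretch upstream of the transcription start is shown for 6 of the genes, because Fabp1 and Rbp2 followed each other over the libraries, as did Fabp2, Sis, Vil1 and Alpi (values are given further on). Sequences are from RefSeq on GRCm38.p6, for which all 9 genes matched by symbol, and run 5′ to 3′ on the strand of the gene. They end at the RefSeq start, or earlier where the GENCODE annotation places an exon, so that no untranslated region is shown. Capitals mark matches on either strand to the short motifs of factors known from intestinal promoters. The letters CAAAGTC stand for the nuclear receptor HNF4. Those of the homeobox factors CDX are TTTATNG, where N is any base. For the GATA factors the motif was AGATAA and for the homeobox factor HNF1 it was GTTAAT. The general TATA box was searched as TATAAA. A single stretch can match both CDX and TATA, as it did in Alpi and Rbp2.
Fabp1: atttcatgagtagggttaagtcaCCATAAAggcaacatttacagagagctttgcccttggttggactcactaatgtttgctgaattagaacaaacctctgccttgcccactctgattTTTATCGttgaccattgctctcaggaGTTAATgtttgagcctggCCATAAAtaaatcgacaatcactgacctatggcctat
Rbp2: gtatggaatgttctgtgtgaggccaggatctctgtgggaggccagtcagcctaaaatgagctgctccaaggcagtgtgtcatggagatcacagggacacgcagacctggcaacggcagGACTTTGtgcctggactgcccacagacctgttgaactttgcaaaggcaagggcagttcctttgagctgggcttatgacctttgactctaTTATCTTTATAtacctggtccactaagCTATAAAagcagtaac
Fabp2: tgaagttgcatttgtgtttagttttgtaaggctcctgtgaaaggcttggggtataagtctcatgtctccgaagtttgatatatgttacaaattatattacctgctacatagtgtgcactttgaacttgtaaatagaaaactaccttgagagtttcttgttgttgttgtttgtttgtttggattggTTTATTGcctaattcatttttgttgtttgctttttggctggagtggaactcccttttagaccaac
Sis: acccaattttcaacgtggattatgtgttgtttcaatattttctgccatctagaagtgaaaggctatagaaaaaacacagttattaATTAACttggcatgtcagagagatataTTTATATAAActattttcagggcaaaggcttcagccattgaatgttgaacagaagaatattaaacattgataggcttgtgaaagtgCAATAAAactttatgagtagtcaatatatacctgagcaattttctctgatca
Vil1: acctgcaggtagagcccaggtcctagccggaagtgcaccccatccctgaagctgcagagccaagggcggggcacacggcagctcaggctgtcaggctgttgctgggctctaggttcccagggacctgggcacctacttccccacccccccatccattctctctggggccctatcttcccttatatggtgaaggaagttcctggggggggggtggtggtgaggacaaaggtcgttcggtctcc
Alpi: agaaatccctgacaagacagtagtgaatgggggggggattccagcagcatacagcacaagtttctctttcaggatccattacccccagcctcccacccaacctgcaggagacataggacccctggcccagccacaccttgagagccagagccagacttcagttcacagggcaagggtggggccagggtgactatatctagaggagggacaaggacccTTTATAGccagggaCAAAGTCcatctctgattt
The Fabp1 stretch is chr6:71199629-71199826 on the plus strand and stops 52 bases before the RefSeq start. That of Rbp2 is chr9:98490287-98490536 on the plus strand, inside an intron of longer transcripts that start upstream. Fabp2 (chr3:122894822-122895071) and Vil1 (chr1:74409134-74409375) are on the plus strand, and Sis (chr3:72967864-72968113) and Alpi (chr1:87101607-87101856) on the minus strand.

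In the 250 bases before the RefSeq start, the CDX letters were found in 5 of the 9 genes (Fabp1, Fabp2, Alpi, Sis and Rbp2), against 9.81% of 32851 windows of that length in the table. The TATA letters were present in 4 of the 9 (Fabp1, Alpi, Sis and Rbp2), against 12.4% of all windows, and in Fabp1 the match lies in the stretch that is not shown. HNF1 letters occurred in Fabp1 and Sis (6.43% of all windows), HNF4 letters in Alpi and Rbp2 (3.84%), and GATA letters in Rbp2 (9.99%). None of these letters was present in the windows of Vil1, Apoa1, Apoa4 and Anpep. The Apoa4 window began inside an annotated exon. Coding transcripts of Anpep start at sites spread over 18707 bases, and those of Vil1 over 9677. Only the window before the RefSeq start was searched, so other starts of these genes are not covered. Sis shared its CDX and TATA letters with Fabp1, Alpi and Rbp2. Vil1, the member closest to Sis over the libraries, held none. Whether the letters bear on the levels was not tested.

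Total counts were between 18894151 and 60665972 in the sham libraries (median 33913980) and between 6430643 and 28672285 in the pMCAO libraries (median 11605371). Levels are CPM, counts scaled to a common library total after correction for composition by the trimmed mean of M-values (TMM), unless stated otherwise. The 14 macrophage markers were all present in every library, with summed levels of 8827 to 19444 CPM in sham and 9862 to 18989 CPM in pMCAO. Lyz2, the lysozyme of macrophages, stood at 4575 to 9826 CPM over all libraries, and Csf1r, the receptor that macrophages need to survive, at 541.7 to 1669 CPM. The markers of the labelled cell type were thus present throughout, while immunoglobulin genes took 0.524 to 14.1% of counts in sham and 0.781 to 16.7% in pMCAO. Xist, the RNA of the inactive X chromosome in female cells, reached 2237 CPM of total counts in the fifth sham library and 4686 CPM in the fourth pMCAO library, and stayed between 1.27 and 4.88 CPM in the remaining 8. The main values are also given without these 2 libraries and without the 2 pools.

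The 9 genes together took 0.0250 to 0.0859% of the counts in sham libraries and 0.0202 to 0.136% in pMCAO libraries. Summed over the 9 genes, the level was 880.3, 274.1, 491.2, 468.3 and 474.5 CPM in sham replicates 1 to 5, and 547.8, 1460.3, 608.6, 192.5 and 260.8 CPM in pMCAO replicates 1 to 5. pMCAO replicate 2 was thus the highest and pMCAO replicate 4 the lowest of all 10, and both ends of the range lay in the same group. As a share of the summed macrophage markers, the 9 genes ranged from 1.06% to 11.7%. On the log2 scale the sum differed between pMCAO and sham by -0.02, where the standard deviation (SD) within a group was 0.91. Without the 2 pools this difference was 0.14, and without the 2 libraries with Xist it was 0.30.

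**Figure D1:**
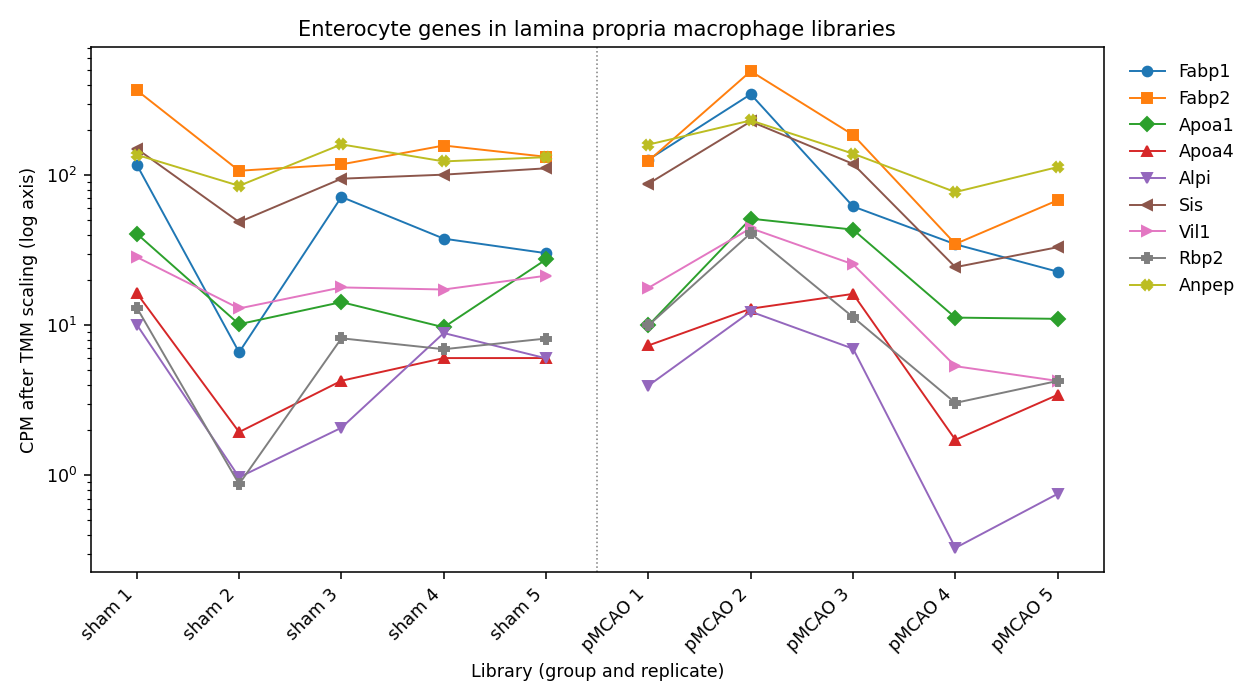
Level of each of the 9 enterocyte genes (CPM after TMM scaling, log axis) in each of the 5 sham and 5 pMCAO libraries. Points are single libraries, and lines join the points of a gene within a group and imply no order. pMCAO replicate 2 is highest for 8 of the 9 genes, and all 9 genes are among their 3 lowest values in sham replicate 2.

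Of the fatty acid and retinol binding proteins, Fabp1 and Rbp2 spanned wider ranges over the libraries than any other member. Fabp1 (ENSMUSG00000054422, chr6:71199827-71205023, GRCm38) was at 117 CPM in sham replicate 1, 6.60 in replicate 2, 71.6 in replicate 3, 37.7 in replicate 4 and 30.2 in replicate 5. After pMCAO it was at 127, 346, 61.8, 34.6 and 22.7 CPM in replicates 1 to 5. The span from lowest to highest library was 52.5-fold, and the group ranges overlapped, since only pMCAO replicates 1 and 2 lay above every sham library. Group means were 52.7 ± 43.0 CPM in sham and 118 ± 133 CPM in pMCAO (SD, n = 5 each). The log2 fold change was 1.17 with a standard error (SE) of 0.78 (edgeR, unadjusted p = 0.158, adjusted p = 0.922). Without pMCAO replicate 2 the log2 fold change of Fabp1 was 0.22.

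Fabp2 (ENSMUSG00000023057, chr3:122895072-122899506) is the fatty acid binding protein of the intestine. Its level was 368, 107, 118, 158 and 133 CPM in sham replicates 1 to 5, and 124, 493, 186, 34.8 and 68.0 CPM in pMCAO replicates 1 to 5. pMCAO replicates 4 and 5 lay below every sham library and pMCAO replicate 2 above, so that the pMCAO range enclosed the sham range. The means were 177 ± 109 and 181 ± 183 CPM (SD, n = 5 each), with a log2 fold change of 0.04 (SE 0.60, edgeR adjusted p = 0.999).

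Rbp2 (ENSMUSG00000032454, chr9:98486115-98509781) carries retinol taken up from the diet. It was at 13.1, 0.873, 8.18, 6.92 and 8.15 CPM in the sham libraries and at 9.97, 41.1, 11.3, 3.04 and 4.25 CPM in the pMCAO libraries, in order of replicate number. Sham replicate 2 held 27 counts and stood apart from the other sham libraries, while pMCAO replicate 2 was over all others. The span was 47.0-fold. Rbp2 differed by a log2 fold change of 0.91 (SE 0.73, edgeR adjusted p = 0.922), which became -0.07 without pMCAO replicate 2.

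Both apolipoproteins had their highest levels in sham replicate 1 and pMCAO replicates 2 and 3. Apoa1 (ENSMUSG00000032083, chr9:46228580-46230466), the main protein of high-density lipoprotein, was at 40.7, 10.2, 14.3, 9.69 and 27.4 CPM in sham and at 9.97, 51.3, 43.4, 11.2 and 11.03 CPM in pMCAO. Apoa4 (ENSMUSG00000032080, chr9:46240696-46243459), which is secreted during fat absorption, was at 16.3, 1.94, 4.26, 6.04 and 6.04 CPM in sham and at 7.33, 12.9, 16.2, 1.72 and 3.44 CPM in pMCAO. Group ranges overlapped for both. The log2 fold changes were 0.31 (SE 0.56, edgeR adjusted p = 0.958) for Apoa1 and 0.26 (SE 0.64, adjusted p = 0.972) for Apoa4. Apoa4 shares 634 exon bases with an unnamed gene model on the opposite strand and 632 with another, and the strand setting of the counting was not given in the sources used here, so that reads of Apoa4 and of these models cannot be told apart.

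The brush border enzymes Sis and Alpi were both highest in pMCAO replicate 2 and lowest in pMCAO replicate 4. Sis (ENSMUSG00000027790, chr3:72888557-72967863), which splits sucrose and starch fragments, was at 150, 48.7, 94.7, 101 and 111 CPM in sham and at 87.7, 228, 119, 24.4 and 33.1 CPM in pMCAO. Alpi (ENSMUSG00000079440, chr1:87098002-87101606) was at 10.1, 0.970, 2.07, 8.87 and 6.01 CPM in sham and at 3.96, 12.3, 6.97, 0.328 and 0.752 CPM in pMCAO. Alpi is the least precise of the 9, with 4 counts in pMCAO replicate 4 and 23 in pMCAO replicate 5. The log2 fold changes were -0.04 (SE 0.52, edgeR adjusted p = 0.999) for Sis and -0.20 (SE 0.86, adjusted p = 0.986) for Alpi, and both groups overlapped in both genes.

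Vil1 (ENSMUSG00000026175, chr1:74409376-74435559), the structural member, was at 28.5, 12.9, 17.9, 17.3 and 21.4 CPM in sham and at 17.7, 44.3, 25.5, 5.33 and 4.25 CPM in pMCAO. As for Fabp2 and Sis, pMCAO replicates 4 and 5 were below every sham library and replicate 2 was above. The log2 fold change was -0.01 (SE 0.54, edgeR adjusted p = 0.999). Vil1 shares 49 exon bases with Usp37, on the opposite strand, whose mean level was 66.6 CPM.

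Anpep (ENSMUSG00000039062, chr7:79821803-79861059), the peptidase that myeloid cells also carry, varied least. Its level was 137, 84.9, 160, 123 and 132 CPM in sham and 160, 232, 139, 77.1 and 113 CPM in pMCAO, a span of 3.00-fold against 9.36-fold for Sis. The libraries with the highest and the lowest level were the same as for Sis, pMCAO replicates 2 and 4. Anpep therefore made up 15.5% of the sum of the 9 genes in sham replicate 1 but 43.4% in pMCAO replicate 5. The log2 fold change was 0.18 (SE 0.27, edgeR adjusted p = 0.953).

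Set against all 16949 tested genes, the 9 members gave no call between pMCAO and sham. None passed an adjusted p of at most 0.05 with a log2 fold change beyond 1 in either direction in the quasi-likelihood test of edgeR, which called 0.0% of all genes. At an unadjusted p under 0.05, 0 of the 9 passed, against 4.71% of all genes, and DESeq2 called 0 of the 9. Non-overlapping groups were found for 0 of the 9, against 0.985% of all genes. The fitted value was higher in pMCAO for 6 (Fabp1, Fabp2, Apoa1, Apoa4, Rbp2 and Anpep) and lower for 3 (Alpi, Sis and Vil1), against 49.4% of all genes higher, and Vil1 changed sign with DESeq2 size factors. The median log2 fold change of the 9 was 0.18 and that of all genes was -0.01. Leaving out the 2 pools or the 2 libraries with Xist also gave 0 calls among the 9 and 0 at an unadjusted p under 0.05, but all 9 fitted values were then above 0. All 9 were also above 0 without pMCAO replicate 4 alone, 1 of the 2 with Xist (median 0.33), and without pMCAO replicate 5 alone (median 0.25). Without the pools the median log2 fold change of the 9 was 0.60, with 1.67 for Fabp1, 1.31 for Rbp2, 0.92 for Apoa1, 0.90 for Apoa4 and 0.60 for Fabp2, and 0.17 to 0.19 for Alpi, Sis, Vil1 and Anpep. Without the libraries with Xist the median was 0.34, from 0.13 for Alpi to 1.25 for Fabp1. Some other settings moved values down. Leaving out pMCAO replicate 2 put all but Fabp1 and Apoa4 below 0. By limma-voom Fabp2, Alpi, Sis and Vil1 were at -0.35, -0.75, -0.41 and -0.59, and the other members stayed above 0. With SEs of 0.27 to 0.86, a true log2 difference of 1 could go undetected in most of these genes with 5 libraries a group.

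**Figure D2:**
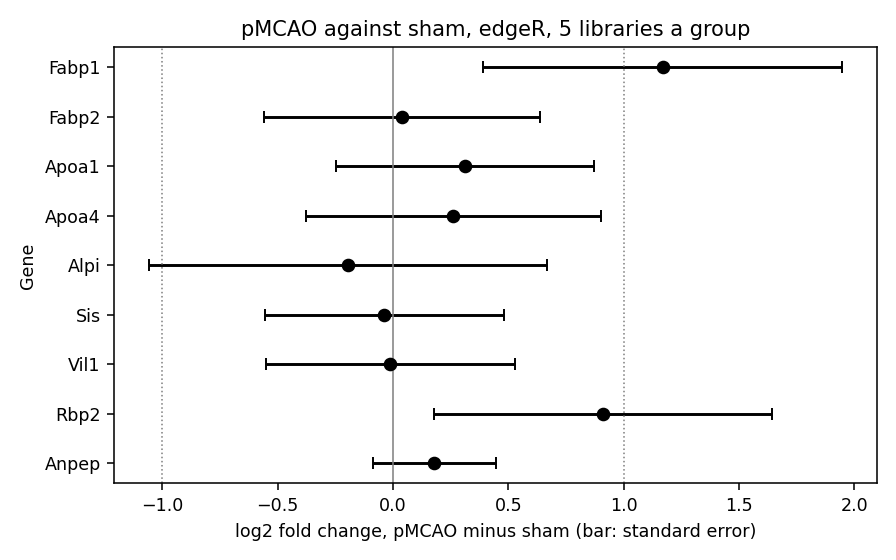
Fitted log2 fold change of pMCAO against sham for each of the 9 genes (edgeR, 5 libraries a group), with the standard error as a bar and dotted lines at -1 and 1. Only Fabp1, at 1.17, lies beyond a dotted line, and its adjusted p is 0.922.

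Levels per kilobase of the longest coding transcript allow the genes to be ordered. Fabp2 led with a mean of 185 CPM per kilobase, followed by Fabp1 with 155, Anpep with 35.8, Apoa1 with 22.1, Sis with 16.7, Rbp2 with 13.3, Vil1 with 6.24, Apoa4 with 4.20 and Alpi with 2.24. Within libraries, Fabp2 exceeded Fabp1 in 6 of 10, with a log2 difference of 0.62 ± 1.21 (SD, n = 10), so this first pair was not separated beyond its spread. Fabp1 exceeded Anpep by 1.45 ± 1.21, Anpep exceeded Apoa1 by 0.95 ± 0.82, and Apoa4 exceeded Alpi by 1.26 ± 0.92 (SD, n = 10 each), each more than the spread. In these pairs the first gene was higher in 9, 8 and 9 of 10 libraries. The differences of Apoa1 and Sis (0.35 ± 0.73), Sis and Rbp2 (0.66 ± 0.90), Rbp2 and Vil1 (0.78 ± 1.06) and Vil1 and Apoa4 (0.68 ± 0.72) were smaller than their spread. The first gene was still higher in 7, 9, 9 and 8 of 10 libraries. The SD describes the spread over libraries, not the error of a mean. The ends of the order were kept between libraries: Fabp2 ranked 1 or 2 in all 10, and Alpi 8 or 9. The middle changed more, with Apoa1 ranking 3 to 6, Sis 4 to 6 and Rbp2 4 to 7.

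The 9 genes moved together over the libraries, whichever group these belonged to. Over all 36 pairs, the Pearson r of log2 CPM was positive, with a median of 0.77 and a range from 0.57 (Apoa1 and Anpep) to 0.97 (Sis and Vil1), over 10 libraries. Spearman's rho had a median of 0.79. These correlations are descriptions, since all genes of a library share its RNA input, depth and scaling. An r of at least 0.7 was reached by 28 of the 36 pairs (77.8%), against 3.11% of all pairs among the tested genes, whose median r was 0.001. The median r was 0.80 within the 5 sham libraries, 0.90 within the 5 pMCAO libraries and 0.82 with both group means removed. Without the 2 pools it was 0.79, without the 2 libraries with Xist it was 0.79, and without pMCAO replicate 2 it was 0.72.

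A pair of tighter subgroups was picked after the values had been seen and carries no test. The subgroups were not set apart from all other pairs, since Rbp2 with Anpep and Apoa4 with Alpi also had an r of 0.90. Fabp2, Sis, Vil1 and Alpi had r between 0.90 and 0.97 in their 6 pairs. Fabp1 and Rbp2 had an r of 0.94 with each other and of 0.62 to 0.80 with the former 4. Within the groups this split was not kept for Rbp2. Its r with Sis was 0.970 in sham and 0.975 in pMCAO, against 0.941 and 0.928 with Fabp1. With both group means removed, Rbp2 had an r of 0.91 with Sis and 0.93 with Fabp1. Fabp2, which binds fatty acids as Fabp1 does, had an r of 0.64 with Fabp1 and 0.73 with Rbp2. Apoa1 was the loosest member, with r between 0.57 and 0.79 to the other genes. Against the mean of the other 8, Sis had the highest r (0.95) and Apoa1 the lowest (0.76). The 2 libraries farthest from the median of that mean were then left out. For Sis and Apoa1 these were pMCAO replicates 2 and 4, and r became 0.92 and 0.66, with Apoa4 also at 0.92. For Fabp2 and Alpi they were sham replicate 2 and pMCAO replicate 2, and r became 0.95 and 0.90. Values from unlike sets of libraries are not ranked against each other.

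**Figure D3:**
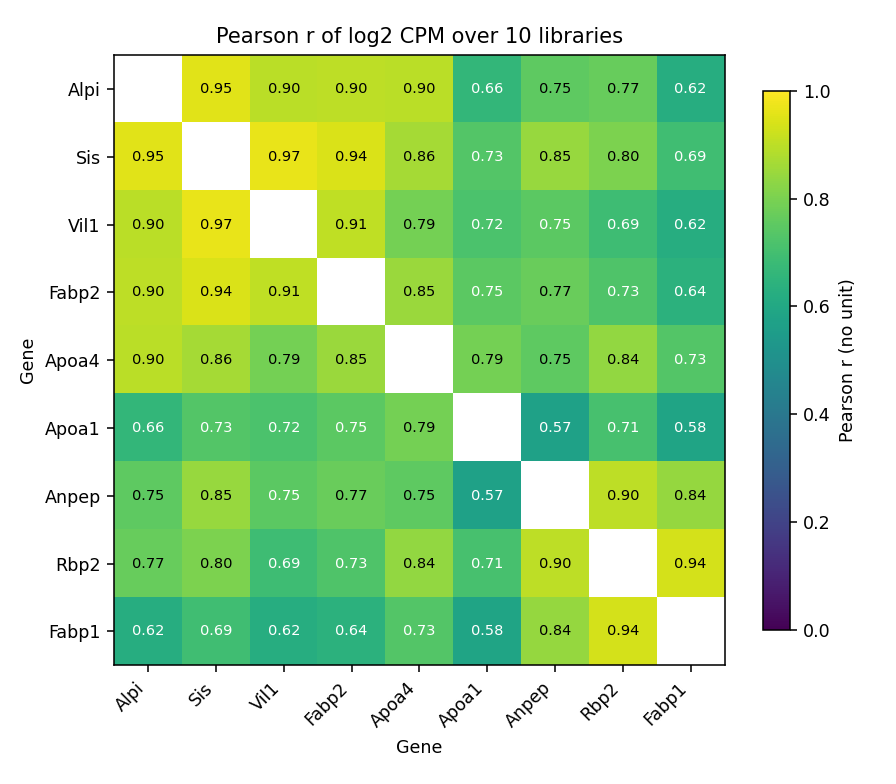
Pearson r of log2 CPM over the 10 libraries for each pair of the 9 genes, with colour from 0 to 1. The block of Alpi, Sis, Vil1 and Fabp2 reads 0.90 or more throughout, the pair of Fabp1 and Rbp2 reads 0.94, and Apoa1 stays under 0.80 with every other gene.

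The ratios between members were not constant over the libraries. The ratio of Sis to Vil1 spanned 3.76 to 7.79 over the 10 libraries, with an SD of 0.27 on the log2 scale, the smallest of the 36 pairs. Counting (Poisson) error alone would give an SD of 0.11 for this pair, and in all 36 pairs the observed SD was at least 2.51 times the counting value. Fabp2 to Sis had an SD of 0.37 and Fabp1 to Rbp2 one of 0.55. The median over the pairs was 0.90, and the widest, at 1.49, were those of Alpi with Fabp1 and with Anpep. Fabp1 alone took between 2.41% and 23.7% of the summed level, lowest in sham replicate 2 and highest in pMCAO replicate 2.

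Relative to Sis in the same library, Rbp2 was the only member whose groups did not overlap. Its log2 ratio to Sis was -3.52, -5.80, -3.53, -3.86 and -3.77 in the sham libraries and -3.14, -2.47, -3.39, -3.00 and -2.96 in the pMCAO libraries. All 5 pMCAO values were higher than all 5 sham values, by a narrow margin between pMCAO replicate 3 and sham replicate 1. This margin was smaller than the SD of 0.16 that counting error alone would give the log2 ratio, averaged over libraries. The means were -4.10 ± 0.96 and -2.99 ± 0.34 (SD, n = 5 each). Of all tested genes, 0.0767% had ratios to Sis that did not overlap between groups, from log2 CPM with a prior count of 2. Only 1.81% of these genes had an r of at least 0.7 with the mean of the members. Ratios of the others to Sis take in the spread of Sis, so the share does not give how rare separation is among genes that vary with Sis. Rbp2 to Sis was 1 of 36 pairs looked at. Sis was chosen as denominator after the values were seen, and the difference is given without a test. Fabp1 had ratios from -2.88 to -0.35 in sham and from -0.94 to 0.60 in pMCAO, which overlapped. Its means were -1.39 ± 1.06 and 0.03 ± 0.72 (SD, n = 5 each). Vil1 (-2.33 ± 0.24 and -2.41 ± 0.32) and Fabp2 (0.73 ± 0.47 and 0.76 ± 0.29) had nearly equal group means.

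**Figure D4:**
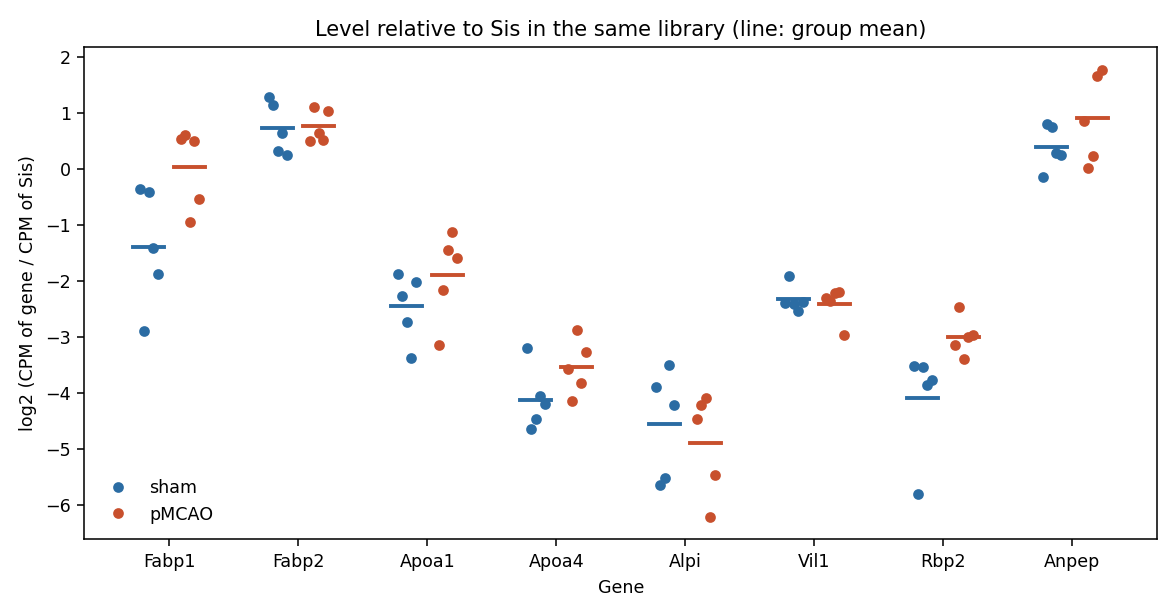
Log2 ratio of each gene's CPM to that of Sis in the same library, for sham (blue) and pMCAO (red); points are libraries and lines are group means (n = 5). Rbp2 is the only gene whose red points all lie above its blue points, and Vil1 is nearly flat apart from a library in each group.

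Other genes of the enterocyte followed the 9 members unequally. Of 43 further enterocyte genes listed by function, 40 were in the table and 39 were tested, with 0 called and 0 at an unadjusted p under 0.05 in edgeR. An unadjusted p under 0.05 was reached by 4 with limma-voom and 6 with limma-voom and sample quality weights. Over all 16949 genes these settings gave 882 and 1888, and every other alternative gave at most 2 of the enterocyte genes. In edgeR 17 of the 39 had fitted values higher and 22 lower in pMCAO. Their median log2 fold change was -0.32, against 0.055 without the pools and -0.085 without the libraries with Xist. An r of at least 0.7 with the mean log2 CPM of the 9 members was found for 19 of the 39, against 1.81% of all tested genes.

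By function, the lipid genes were closest to the 9 members, with 8 of 10 at an r of at least 0.7. Apob, the scaffold of chylomicrons, was at 40.5 to 110 CPM in sham and 28.0 to 214 CPM in pMCAO with an r of 0.94, and Mttp, which loads lipid onto Apob, had an r of 0.94 as well. Fabp6, the bile acid binding protein of the ileum, had an r of 0.71. Among 9 peptide genes 3 reached 0.7, with 0.90 for the peptidase Enpep. Dpp4, a peptidase also present on T cells, had an r of 0.18 at a mean level of 162 CPM. In the sugar group 3 of 7 reached 0.7, with 0.78 for the starch enzyme Mgam, but 0.19 for the glucose transporter Slc2a2. Slc2a2 had a mean of only 1.59 CPM and 0 counts in pMCAO replicate 1, so its r is imprecise. All 7 sugar genes had negative fold changes (median log2 -0.64, smallest unadjusted p = 0.272, edgeR), none past the test, and without the pools 5 of the 6 tested did (median -0.16). Of the brush border list, Myo1a, the motor of the microvilli, had an r of 0.89, and Espn had -0.53. The r of Espn is imprecise too, at a mean of 1.41 CPM and 1 count in pMCAO replicate 3. The transcription factors Hnf4g (0.87) and Hnf4a (0.71) passed 0.7, while Cdx2, the factor that sets intestinal identity, had 0.60.

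The 10 genes outside the group with the highest r to the mean of the 9 included Gsta1 (0.95), Apob (0.94), Mttp (0.94), Slc26a3 (0.93), Anxa13 (0.92), Gstm3 (0.92), Aadac (0.92), Bche (0.91) and Tm4sf20 (0.91). Their mean levels ran from 4.84 CPM for Gsta1 to 87.2 CPM for Apob. Single members had their own nearest genes. Vil1 was closest to Mgst1 (r = 0.99), Trim31 (0.97) and Sis (0.97), and Sis to Cyp4f14 (0.98), Vil1 and Gm1123 (0.96). Alpi was closest to Bche (0.97), Arl14 (0.96) and Sis (0.95), and Fabp2 to Sis (0.94), Gm1123 (0.93) and Stap2 (0.93). For Fabp1 they were Tmem82 (0.94), Rbp2 (0.94) and Lrrc49 (0.91), and for Rbp2 they were Fabp1, Acaa2 (0.92) and Gstm3 (0.91). Apoa1 had Cyp2j6 (0.95) and Anxa13 (0.92) among its nearest genes, and Apoa4 had Creb3l3 (0.93) and Gm5549 (0.93). Anpep had Zfp790 (0.92), Mttp (0.92) and Snx12 (0.92).

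General epithelial markers also varied with the 9 members. Over 12 epithelial genes, the summed level was 360.9 to 638.2 CPM in sham and 82.7 to 618.5 CPM in pMCAO, and only Cldn15 was at 0 in a library. The list's mean log2 CPM had an r of 0.78 with that of the 9 members (0.71 without the 2 libraries farthest from the median), with 7 of 12 genes at 0.7 or more, among them Lgals4 (0.85) and Krt8 (0.70). Epcam, the surface protein of all gut epithelium, was at 83.3 to 130 CPM in sham and 14.1 to 126 CPM in pMCAO with an r of 0.68. All 12 had negative fold changes in pMCAO (median log2 -0.69), with 0 called and 0 at an unadjusted p under 0.05. Of the 12, 9 did so without the libraries with Xist (median -0.43) and 9 without the pools (median -0.50). The log2 ratio of the summed 9 members to the summed epithelial list was -0.02 ± 0.33 in sham and 0.85 ± 0.48 in pMCAO (SD, n = 5 each), with overlapping groups. The part of epithelial cells in the levels of the 9 genes was not tested.

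For the secretory cells of the epithelium, the order relative to the epithelial list depended on the libraries. The 14 goblet and Paneth cell genes summed to 682.4 to 3377 CPM in sham and 382.4 to 4992 CPM in pMCAO, Ang4 was at 0 in 2 libraries, and the list mean had an r of 0.61, which became 0.77 without the 2 farthest libraries. Muc2, the gel-forming mucin of goblet cells, had an r of 0.75, and Lyz1, the lysozyme of Paneth cells, one of 0.07. The mean of the 14 macrophage genes had an r of 0.17 (0.50 without the 2 farthest libraries), and 0 of the 14 reached 0.7, the highest being Itgam at 0.34. The list mean of 8 dendritic cell genes had an r of -0.26, that of 8 B and plasma cell genes -0.07, that of 6 T cell genes -0.16, that of 7 stromal and endothelial genes -0.31, and that of 2 haemoglobin genes 0.14. Without the 2 farthest libraries these were -0.68, -0.51, -0.36, -0.51 and 0.30. Anpep had a median r of 0.04 with the 14 macrophage genes (from -0.32 to 0.40) and of 0.60 with the 12 epithelial genes. The medians of Apoa1 were similar, at 0.05 and 0.56. The source of the Anpep reads was not tested. The r of each of the 9 with log2 total counts lay between -0.25 and 0.25, with the share of mitochondrial ribosomal RNA between -0.14 and 0.27, and with the immunoglobulin share between -0.01 and 0.43.

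**Figure D5:**
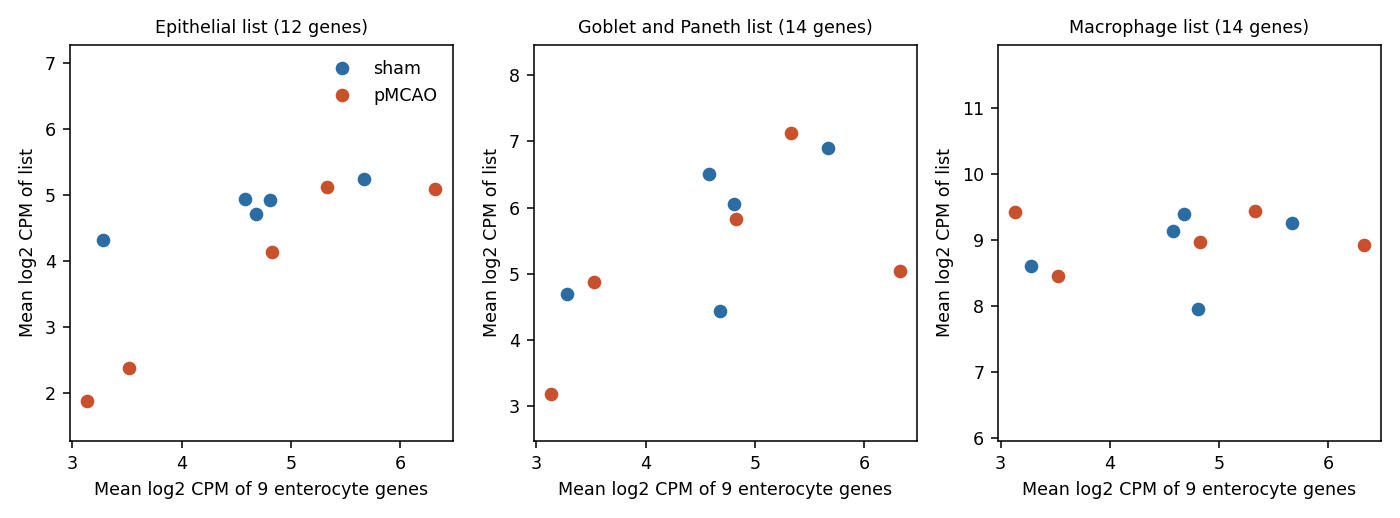
Mean log2 CPM of 3 marker lists (vertical axes) against the mean log2 CPM of the 9 enterocyte genes (horizontal axis), 1 point per library, sham in blue and pMCAO in red. Every vertical axis spans the same 6 log2 units; r over all 10 libraries is 0.78 for the epithelial list, 0.61 for the goblet and Paneth list and 0.17 for the macrophage list, and without the 2 libraries farthest from the median it is 0.71, 0.77 and 0.50.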

How the data were processed

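Total RNA of sorted lamina propria macrophages (2.0 ng per library) was sequenced after cleavage of ribosomal RNA. The authors deposited whole-number read counts per gene, and their processing notes name STAR, featureCounts and limma with GRCm38 (mm10), without versions, annotation or strand setting. The deposited CPM columns are these counts scaled to a common table total, and were not used for tests. The table also holds the authors' log2 fold changes, mean expression, p-values and FDRs, which were not used. Each of the 17279 listed genes reached 10 counts in 2 or more libraries, which points to a filter applied before deposit. The paper at hand describes epithelial libraries, not these.

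Counts were filtered by filterByExpr (16949 genes kept), scaled by TMM and tested in edgeR 4.0.16 (R 4.3.3) by quasi-likelihood, without covariates, and p-values were adjusted by Benjamini-Hochberg over all tested genes. SEs were the fold change divided by the root of F. Log2 CPM had a prior count of 2, and ratios of CPM had none. The checks for ratios not overlapping, over all genes and over the 36 pairs, used log2 CPM with the prior count. Correlations and figures used numpy 2.4.6, pandas 2.3.3, scipy 1.17.1 and matplotlib 3.10.9. Positions and lengths came from GENCODE M21. The alternatives were DESeq2 1.42.0, limma-voom (limma 3.58.1), other scalings and filters, a replicate block, and libraries left out.

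The 9 genes, the other lists and the motifs were chosen with earlier results of these data known. Named genes are the members, genes among the 3 most abundant of each list, the 10 most like the members' mean, and 3 nearest each member. Further list genes (Slc2a2, Espn, Cldn15, Muc2, Ang4 and Itgam) and the pair subgroups were chosen after their values were seen. Some genes that the rule gives are not reported here. Replicates are biological according to the labels, but the animals behind each were not given. The depth ranges bound the precision, and counting errors cover counting only.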

Additional observations from a re-analysis of the deposited data

Results flagged for a closer look

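Each of the 9 genes, their sum and each ratio to Sis was searched, in each group of 5 libraries, for a library whose gap to its nearest neighbour exceeded 0.71 of the group's range. This held in 4 of 36 groups, where about 1.8 would be so by chance, and the measures are not independent. Rbp2 was low in sham replicate 2, at 0.873 CPM (gap 0.76 of the range of log2 CPM). The log2 ratio of Rbp2 to Sis was low in the same library, at -5.80 (gap 0.848). The ratio of Vil1 to Sis was high there, at -1.91 (gap 0.739), and low in pMCAO replicate 5, at -2.96 (gap 0.777). Rbp2 rests on 27 counts and Vil1 on 400 in sham replicate 2, and Vil1 on 130 in pMCAO replicate 5. Whether depth has a part in these gaps was not tested.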

How the results depend on the processing

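No alternative called any of the 9 members or the 39 other enterocyte genes. Over all genes, DESeq2 called 2, against 0 in edgeR. The fold changes near 0 changed sign readily. For Fabp2 the log2 fold change was -0.35 with limma-voom, -0.55 with limma-voom and sample quality weights, and for Apoa1 the latter gave -0.25. Without the pools, Alpi, Sis and Vil1 were at 0.19, 0.19 and 0.19, while Fabp2 went from 0.04 to 0.60, Apoa1 from 0.31 to 0.92 and Apoa4 from 0.26 to 0.90. Without the libraries with Xist, Alpi, Sis and Vil1 were at 0.13, 0.24 and 0.26, Fabp2 at 0.21, Apoa1 at 0.63, Apoa4 at 0.48 and Anpep at 0.34, against 0.18 for Anpep in all libraries. Vil1 was at 0.0052 with DESeq2 and 0.0058 with DESeq2 size factors in edgeR. The cause of these changes was not tested. Leaving out each library in turn gave log2 fold changes of 0.22 to 1.698 for Fabp1, -0.78 to 0.49 for Fabp2, -0.12 to 0.72 for Apoa1, -0.13 to 0.86 for Apoa4, -0.92 to 0.13 for Alpi, -0.62 to 0.20 for Sis, -0.58 to 0.25 for Vil1, -0.070 to 1.21 for Rbp2 and -0.062 to 0.33 for Anpep. Without pMCAO replicate 2 all but Fabp1 and Apoa4 were below 0. The summed level differed by -0.43 to 0.31 on the log2 scale without single libraries, and the median r of the pairs was between 0.72 and 0.81. A replicate block put Fabp2 at -0.44 with 0 genes called, and 1303 had an unadjusted p under 0.05, against 799 without it. Same-numbered libraries correlated by -0.005 to 0.37, over 0.1 in 3 of 5 pairs, and 2 of 5 sham libraries correlated best with their own number, so the numbers were not taken to pair them. Depth limits Alpi most, at 4 counts in pMCAO replicate 4.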
